A study of Mus musculus with 18 samples.

Results

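RNA levels of differentiated 3T3-L1 cells titled as MLKL knockout (J7_MLKL, 3 libraries) were compared directly with those of differentiated cells titled as RIPK3 knockout (J7_RIPK3, 3 libraries). 3T3-L1 is an established mouse fibroblast line that turns into fat-storing adipocytes when given a differentiation cocktail. These 6 libraries, of 18 in the study, were chosen by their titles, and the genes were all those with a read count in both groups in any of 7 comparison tables. That rule left 6888 of the 15194 genes listed in any table, of which 6129 were protein-coding, and 6591 passed the filter on low counts and were tested. J7_MLKL cells are labelled as differentiated and have MLKL in their titles, with the genotype characteristic RIPK3-/-. J7_RIPK3 cells are labelled as differentiated and have RIPK3 in their titles, with the genotype characteristic MLKL-/-. The same study holds undifferentiated cells of both lines (J0_MLKL and J0_RIPK3, labelled as untreated) and control cells at both stages (J7_CTL and J0_CTL), with 3 libraries in each of the 6 groups. At J0 title and genotype name the same gene. In all 6 J7 knockout libraries they do not, so group names follow the titles alone, and which gene was edited in which J7 group is not settled by the labels. If the genotype characteristic is the right one, every direction between J7_MLKL and J7_RIPK3 given here belongs to the opposite knockouts, and the comparisons of J7 with J0 cross the lines. The labels do not say how many clones each line comes from, how the genes were disrupted, or whether replicates were grown apart. The p-values therefore measure only the spread between these libraries.

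Necroptosis is a form of programmed lysis in which the kinase RIPK3 phosphorylates the pseudokinase MLKL, which then assembles at the plasma membrane and breaks it. Adipocyte differentiation runs through the nuclear receptor PPARγ and the factor C/EBPα, which switch on genes of lipid uptake, synthesis and storage while genes of the fibroblast matrix and actin cytoskeleton are turned down. Type I interferons induce antiviral genes through interferon-stimulated response elements in the promoters of those genes.

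Library totals, recovered from the deposited counts and FPKM values, were 25.9, 21.7 and 26.4 M reads in J7_MLKL and 24.0, 20.2 and 26.5 M reads in J7_RIPK3. Levels are given in CPM, read counts scaled to a common library total, which do not correct for gene length. Folds are ratios of the reads summed over a group's libraries, each divided by the summed library totals of that group. Log2 fold changes come from the fit and also carry its TMM scaling factors. The values of a gene therefore differ slightly between these scales, and from the ratio of its mean CPM. The listed genes held 53.5 to 54.5% of the J7_MLKL reads and 94.4 to 98.4% of the J7_RIPK3 reads, since a table holds a gene only where the authors' own adjusted p in that comparison was below 0.05. Of the 6591 genes tested, 6150 (93.3%) entered through the table of J7_MLKL against J7_CTL, so most had been preselected for a difference between J7_MLKL and control cells. The library J7_MLKL 3 stood apart. Its log expression correlated at 0.963 and 0.962 with J7_MLKL 1 and 2, against 0.997 between those libraries and 0.778 to 0.789 between the groups. Results that turn on it are given with and without it. In bulk RNA, fewer cells of a type and less RNA per cell cannot be told apart.

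Most measured genes differed between the lines. At an adjusted p under 0.05 (edgeR quasi-likelihood F test, Benjamini-Hochberg over all 6591 genes), 5723 genes (86.8% of those tested) were called, 2952 (44.8% of those tested) higher and 2771 (42.0%) lower in J7_MLKL than in J7_RIPK3. With an absolute log2 fold change over 1 as well, 2294 genes (34.8%) were higher and 1626 (24.7%) lower. For 6001 genes (91.0%) the 3 values of one group all lay beyond the 3 of the other. The median log2 fold change was -0.03, with quartiles at -0.99 and 1.45. Without TMM factors, on library totals alone, this median shifted by -0.17, so a value near 0 depends on the scaling. Because so many genes were called, the counts of a gene list below are read against these shares. They cover tested members only, since a gene that no table lists for one of the groups has no value there. Among the 1566 genes tested that both differentiation tables list, 1248 (79.7%) were called.

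**Figure D1:**
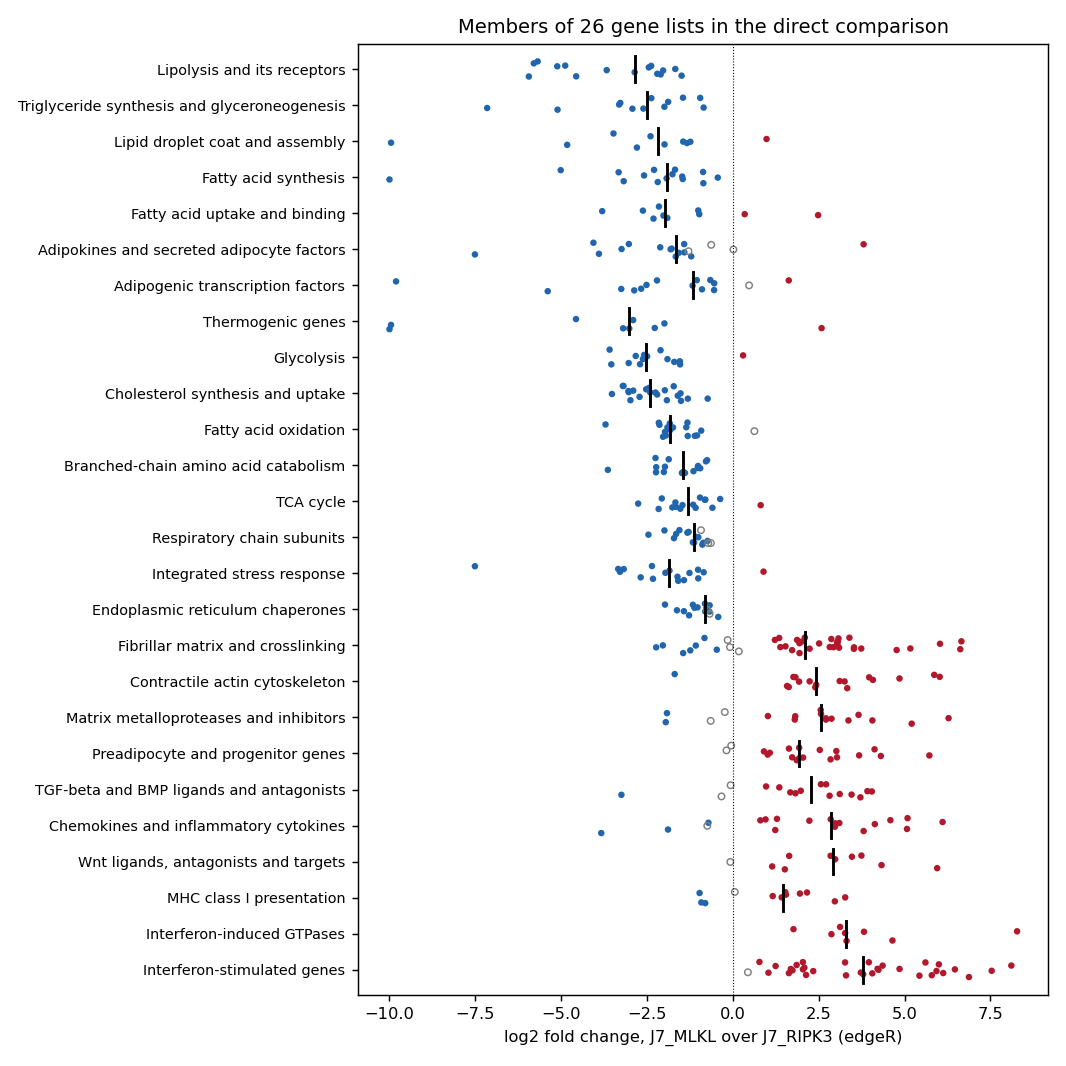
The plot shows the log2 fold change of J7_MLKL over J7_RIPK3 (x axis) for each tested member of 26 gene lists, with lists on the y axis. Filled red points were called higher, filled blue points lower and open grey points were not called; the black bar is the list's median, which lies at -2.85 for lipolysis and at 3.80 for interferon-stimulated genes.

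Both target transcripts were read in every library of both groups. Mlkl (ENSMUSG00000012519, chromosome 8, 111311797 to 111338177, mm10) had 13.9, 16.4 and 15.02 CPM in J7_MLKL, against 32.3, 26.5 and 28.4 CPM in J7_RIPK3. The groups did not overlap, and Mlkl was lower in J7_MLKL (log2 fold change -0.78 ± 0.13 SE, adjusted p 0.00123). Ripk3 (ENSMUSG00000022221, chromosome 14, 55784995 to 55788865, mm10) had 7.73, 7.97 and 11.99 CPM in J7_MLKL, against 10.2, 10.8 and 11.7 CPM in J7_RIPK3. Those ranges overlapped through J7_MLKL 3, and the difference did not pass the test (log2 fold change -0.06 ± 0.22 SE, adjusted p 0.785), although without J7_MLKL 3 the value was -0.33 (adjusted p 0.0169). J7_CTL stood at 26.3 ± 1.10 CPM for Mlkl and 18.3 ± 0.842 CPM for Ripk3 (SD, n = 3). In undifferentiated cells, where title and genotype name the same gene, Mlkl had 7.24, 9.72 and 7.19 CPM in J0_MLKL, against 15.6, 14.5 and 17.7 CPM in J0_RIPK3 (log2 -0.99, adjusted p 0.0002), the direction seen at J7 by title. Ripk3 was lower in J0_MLKL as well, at 5.73, 9.44 and 7.19 CPM in J0_MLKL, against 14.7, 17.3 and 15.8 CPM in J0_RIPK3 (log2 -1.09, adjusted p 0.00104), so at J0 the Ripk3 transcript was higher in the cells labelled RIPK3-/-. A small insertion or deletion can leave a transcript's level as it was, so these levels do not say which gene was edited. Of 11 tested genes of the necroptosis machinery, 4 were higher and 5 lower, and without J7_MLKL 3 the count was 4 higher and 7 lower. The adaptor Tradd was at 50.9 ± 20.7 CPM in J7_MLKL and 21.6 ± 1.15 CPM in J7_RIPK3 (log2 1.42, adjusted p 0.00295), and the double-stranded RNA receptor Tlr3 at 20.2 ± 4.62 CPM in J7_MLKL and 10.7 ± 1.41 CPM in J7_RIPK3 (log2 1.09, adjusted p 0.00234). The ubiquitin editor Tnfaip3 was at 8.29 CPM in J7_MLKL, against 23.3 CPM in J7_RIPK3 (log2 -1.32, adjusted p 0.000365).

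Adipocyte markers were present in both groups and were several-fold lower in J7_MLKL. Adipoq, which encodes the hormone adiponectin, had 320.1, 384 and 684 CPM in J7_MLKL, against 1843, 1860.5 and 1669 CPM in J7_RIPK3 (log2 fold change -1.77 ± 0.30 SE, adjusted p 0.00132). Plin1, the perilipin that coats adipocyte lipid droplets, had 154, 189 and 236 CPM in J7_MLKL, against 1509.7, 1519 and 1467 CPM in J7_RIPK3 (log2 fold change -2.78 ± 0.19 SE, adjusted p 2.46e-05). J7_CTL averaged 1756 CPM for Adipoq and 1392 CPM for Plin1, close to J7_RIPK3 on this scale. At J0 neither line had more than 0.19 CPM of Plin1 in any library, so J7_MLKL cells carried adipocyte transcripts that undifferentiated cells lacked. The fibroblast markers went the other way. Pdgfra, a receptor kinase of adipocyte progenitors, had 1426, 1452 and 614 CPM in J7_MLKL, against 102, 104 and 99.3 CPM in J7_RIPK3 (log2 fold change 3.68 ± 0.34 SE, adjusted p 9.1e-05), and J7_MLKL 3 was the lowest J7_MLKL library.

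Transcription factors of adipogenesis were lower as a group. Of 15 tested, 13 were lower and 1 was higher, with a median log2 fold change of -1.17 (over all genes tested -0.03). Cebpa (ENSMUSG00000034957, chromosome 7, 35119293 to 35121928, mm10), which encodes C/EBPα, had 24.8, 35.3 and 47.2 CPM in J7_MLKL, against 393, 389 and 365 CPM in J7_RIPK3. The groups lay far apart, and Cebpa was 10.6-fold lower in J7_MLKL (log2 fold change -3.24 ± 0.25 SE, adjusted p 4.43e-05). Pparg (ENSMUSG00000000440, chromosome 6, 115360951 to 115490399, mm10) had 57.1, 67.3 and 89.3 CPM in J7_MLKL, against 387, 369.6 and 353 CPM in J7_RIPK3 (log2 fold change -2.20 ± 0.19 SE, adjusted p 6.58e-05). Klf15, a zinc finger factor induced during adipogenesis, was 46.4-fold lower, at 1.997 ± 1.03 CPM in J7_MLKL and 95.2 ± 1.43 CPM in J7_RIPK3 (SD, n = 3 each). Nr1h3, the liver X receptor α, was 7.05-fold lower (log2 -2.66, adjusted p 0.000362), and Ebf2, a factor of brown and beige adipocyte identity, was 8.23-fold lower (log2 -2.86, adjusted p 0.000102). Of the PGC-1 coactivators, Ppargc1b was 6.55-fold lower (log2 -2.51, adjusted p 0.000985), while Ppargc1a had 13.5, 12.7 and 6.32 CPM in J7_MLKL, against 8.46, 7.53 and 10.1 CPM in J7_RIPK3 and was not called (adjusted p 0.165). Without J7_MLKL 3 it was called higher (0.73). The member called higher was Klf5, an early adipogenic factor, at 18.1 ± 4.15 CPM in J7_MLKL and 6.57 ± 0.699 CPM in J7_RIPK3 (log2 1.63, adjusted p 0.000316); it was named after its value was seen.

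Secreted adipocyte factors followed the same direction, with 13 of 17 tested members lower, 1 higher and a median of -1.65. Apln, which encodes the peptide hormone apelin, had 7.69, 9.17 and 10.02 CPM in J7_MLKL, against 173, 167 and 161 CPM in J7_RIPK3. J7_MLKL libraries were uniformly low, and the gene was 18.7-fold lower (log2 fold change -4.05 ± 0.14 SE, adjusted p 4.46e-06). Resistin, from Retn, had 9.50, 16.2 and 42.7 CPM in J7_MLKL, against 388, 396 and 369 CPM in J7_RIPK3 (log2 fold change -3.89 ± 0.57 SE, adjusted p 0.000697). Here J7_MLKL 3 held the highest J7_MLKL level, and without it the log2 fold change was -4.78. The acute-phase protein gene Hp was 9.06-fold lower (log2 -3.02, adjusted p 0.000196) and the neuregulin gene Nrg4 10.7-fold lower (log2 -3.23, adjusted p 5.02e-05). The one called higher was Cxcl12, a chemokine of stromal cells, with 2778, 2545 and 2303 CPM in J7_MLKL, against 213, 213 and 187 CPM in J7_RIPK3 (log2 fold change 3.81 ± 0.13 SE, adjusted p 4.46e-06).

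**Figure D2:**
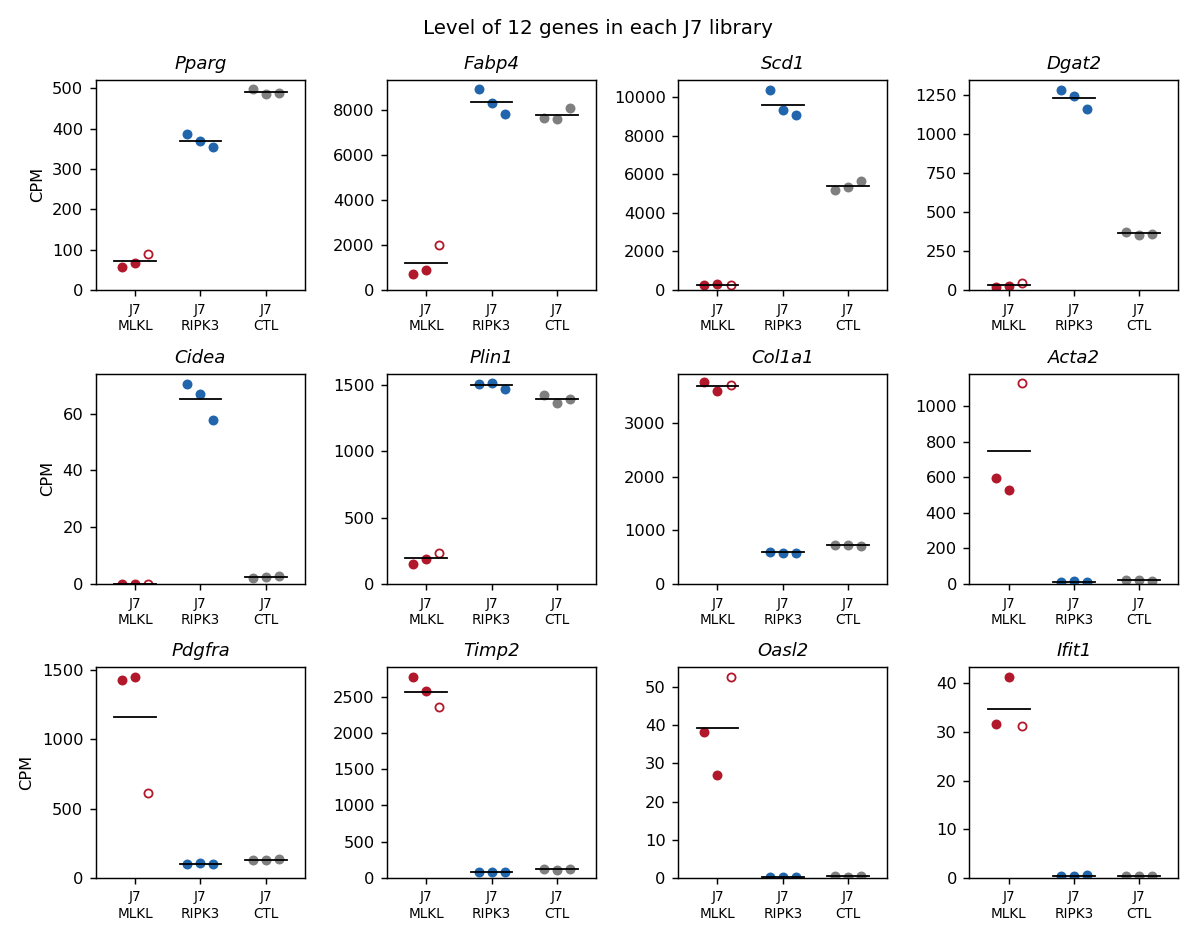
The plot gives the level of 12 genes (y axis, CPM from 0) in each library of J7_MLKL, J7_RIPK3 and J7_CTL (x axis), with the group mean as a bar and J7_MLKL 3 as an open circle. For the 6 adipocyte genes all J7_MLKL points lie below the J7_RIPK3 points, and for the other 6 all lie above, with Acta2 highest in J7_MLKL 3 and Pdgfra lowest there.

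Genes for taking up, storing and releasing fat were lower almost throughout. In fatty acid uptake and binding 8 of 10 members were lower and 2 higher (median -1.96; 1 higher on library totals, with the authors' size factors, or without J7_MLKL 2 or any 1 J7_RIPK3 library), in droplet coat and assembly 9 of 10 were lower and 1 higher (median -2.19), and in lipolysis and its receptors all 15 tested members were lower (median -2.85). Lpl, the lipoprotein lipase that frees fatty acids from lipoproteins, had 2128, 2182.1 and 1685 CPM in J7_MLKL, against 9688, 9892 and 9459 CPM in J7_RIPK3 (log2 fold change -2.11 ± 0.14 SE, adjusted p 2.35e-05). Fabp4, the main fatty acid carrier of adipocytes, had 723, 883 and 2018 CPM in J7_MLKL, against 8953, 8320.4 and 7824 CPM in J7_RIPK3. J7_MLKL 3 held more than J7_MLKL 1 and 2 but still lay below every J7_RIPK3 library, and the log2 fold change was -2.61 ± 0.41 SE (adjusted p 0.00101), or -3.23 without it. Acsl1, which activates fatty acids to acyl-CoA, was 15.8-fold lower (log2 -3.79, adjusted p 7.5e-06), and the scavenger receptor Cd36 4.99-fold lower (log2 -2.14, adjusted p 2.24e-05).

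Among droplet genes, Cidec, which fuses lipid droplets, had 118, 155 and 281 CPM in J7_MLKL, against 2443, 2282 and 2197 CPM in J7_RIPK3 (log2 fold change -3.47 ± 0.35 SE, adjusted p 0.000134). G0s2, an inhibitor of the triglyceride lipase, had 11.6, 16.7 and 40.7 CPM in J7_MLKL, against 781, 739 and 684 CPM in J7_RIPK3 (log2 fold change -4.81 ± 0.52 SE, adjusted p 0.000178), and without J7_MLKL 3 its value was -5.57. Cidea (ENSMUSG00000024526, chromosome 18, 67343564 to 67367794, mm10), the relative of Cidec that marks brown and beige fat, had 0.0386, 0.0461 and 0.0757 CPM in J7_MLKL, against 70.6, 66.9 and 57.9 CPM in J7_RIPK3, from 4 reads in J7_MLKL and 4579 reads in J7_RIPK3. J7_CTL averaged 2.46 ± 0.361 CPM. Cidea was thus highest in J7_RIPK3 of the 3 J7 groups. Fitm2, which packs triglyceride into droplets, was 5.89-fold lower (log2 -2.39, adjusted p 1.61e-05). The droplet member called higher was Plin3, a perilipin of many cell types, at 177 ± 22.5 CPM in J7_MLKL and 101 ± 4.53 CPM in J7_RIPK3, named after its value was seen (log2 0.99, adjusted p 0.000394).

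In lipolysis, Mgll, which cleaves monoglycerides, had 1.04, 1.70 and 0.719 CPM in J7_MLKL, against 85.1, 76.0 and 73.7 CPM in J7_RIPK3 and was 69.8-fold lower (log2 fold change -5.93 ± 0.28 SE, adjusted p 8.48e-06). The receptors that restrain lipolysis showed the same direction: Hcar2, the niacin and ketone receptor, was 38.6-fold lower (log2 -5.10, adjusted p 1.05e-05), Hcar1, the lactate receptor, 26.4-fold lower (log2 -4.55, adjusted p 2.93e-06) and Ffar2, the short-chain fatty acid receptor, 14.2-fold lower (log2 -3.66, adjusted p 6.76e-06). Ces1f, a carboxylesterase, was 8.12-fold lower (log2 -2.85, adjusted p 2.01e-05).

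All 15 tested genes of fatty acid synthesis and all 14 of triglyceride synthesis and glyceroneogenesis were lower, with medians of -1.92 and -2.48. Scd1 (ENSMUSG00000037071, chromosome 19, 44394451 to 44407709, mm10) encodes the desaturase that makes monounsaturated fatty acids. It had the largest difference in mean CPM among the called protein-coding genes that were lower in J7_MLKL. It had 241, 294 and 262 CPM in J7_MLKL, against 10384, 9303 and 9082 CPM in J7_RIPK3, and J7_CTL averaged 5385 ± 227 CPM. The groups were separated by more than an order of magnitude, and Scd1 was 36.3-fold lower (log2 fold change -5.00 ± 0.15 SE, adjusted p 2.93e-06). Its relative Scd2 was 11.3-fold lower (log2 -3.32, adjusted p 1.36e-05), and Thrsp, a regulator of lipogenesis, 9.95-fold lower (log2 -3.17, adjusted p 0.000553; log2 -3.85 without J7_MLKL 3). Elovl3, an elongase of brown fat, had 1 read in J7_MLKL and 1477 reads in J7_RIPK3, 1547-fold lower with a 95% counting interval of 277 to 61152. Its log2 fold change of -9.98 was -11.89 without J7_MLKL 3. Acss2, which makes acetyl-CoA from acetate, was 6.68-fold lower (log2 -2.58, adjusted p 9.47e-06).

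Dgat2 (ENSMUSG00000030747, chromosome 7, 99153658 to 99182719, mm10), the enzyme of the last step of triglyceride synthesis, had 21.6, 26.6 and 47.3 CPM in J7_MLKL, against 1285, 1247 and 1162 CPM in J7_RIPK3. It was 38.1-fold lower in J7_MLKL (log2 fold change -5.09 ± 0.34 SE, adjusted p 2.61e-05), and J7_CTL, at 363 ± 9.55 CPM, lay between the groups. Pck1, the key enzyme of glyceroneogenesis, had 0.464, 0.875 and 0.757 CPM in J7_MLKL, against 114, 109 and 109 CPM in J7_RIPK3 (log2 fold change -7.14 ± 0.21 SE, adjusted p 2.93e-06), and J7_CTL averaged 15.3 ± 3.65 CPM. For both genes J7_RIPK3 was the highest of the 3 J7 groups. Gpd1, which makes glycerol phosphate, was 11.01-fold lower (log2 -3.30, adjusted p 6.96e-05), the acyltransferase Gpat3 12.7-fold lower (log2 -3.50, adjusted p 1.75e-05) and the phosphatidate phosphatase Lpin1 10.97-fold lower (log2 -3.27, adjusted p 2.12e-05).

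Glucose handling was lower as well. Of 14 insulin signalling and glucose uptake genes 10 were lower and 4 higher (median -1.09), and of 14 glycolysis genes 13 were lower and 1 higher (median -2.53; 0 higher on library totals, with the authors' size factors or without any 1 J7_RIPK3 library). Slc2a4, which encodes the insulin-regulated glucose transporter GLUT4, had 6.53, 8.11 and 12.3 CPM in J7_MLKL, against 248, 241 and 239 CPM in J7_RIPK3 and was 26.8-fold lower (log2 fold change -4.57 ± 0.26 SE, adjusted p 1.6e-05). The adaptors Grb10 and Grb14, which inhibit the insulin receptor, were higher: Grb10 stood at 29.2 ± 6.69 CPM in J7_MLKL and 1.68 ± 0.349 CPM in J7_RIPK3 (log2 4.28, adjusted p 1.53e-05) and Grb14 at 17.3 ± 1.26 CPM in J7_MLKL and 4.87 ± 0.382 CPM in J7_RIPK3 (log2 2.00, adjusted p 3.57e-05). Irs3, an insulin receptor substrate of rodent adipocytes, was 56.6-fold lower (log2 -5.58, adjusted p 2.93e-05) and reached -6.26 on the log2 scale without J7_MLKL 2. In glycolysis, the hexokinase Hk2 was 13.1-fold lower (log2 -3.53, adjusted p 8.19e-06) and Pfkfb3, which raises phosphofructokinase activity, 13.7-fold lower (log2 -3.58, adjusted p 1.61e-05). Ldha, lactate dehydrogenase A, had 231, 224 and 386 CPM in J7_MLKL, against 2758, 2531 and 2456 CPM in J7_RIPK3 (log2 fold change -3.02 ± 0.25 SE, adjusted p 6.36e-05), and Aldoa, an aldolase, 468, 479.5 and 929 CPM in J7_MLKL, against 4454, 4362 and 4153 CPM in J7_RIPK3 (log2 fold change -2.61 ± 0.30 SE, adjusted p 0.000259). J7_MLKL 3 was the highest J7_MLKL library for Ldha and Aldoa, and neither gene's groups overlapped.

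Mitochondrial pathways were lower too. Fatty acid oxidation had 16 of 17 members lower and 0 higher (median -1.81), branched-chain amino acid catabolism all 17 tested (median -1.48), the TCA cycle 15 of 16 with 1 higher (median -1.30), and respiratory chain subunits 16 of 21 with 0 higher (median -1.12). The respiratory chain count covers only 21 of 42 members and depended on J7_MLKL 3. Without that library all 21 were lower, and the tested members had a median log2 ratio of 0.95 in J7_MLKL 3 over the mean of J7_MLKL 1 and 2. Crat, carnitine acetyltransferase, was 4.97-fold lower (log2 -2.15, adjusted p 2.44e-05) and the carnitine palmitoyltransferase Cpt2 4.38-fold lower (log2 -1.97, adjusted p 9.43e-05). Cpt1a, which admits fatty acids to mitochondria, was at 92.9, 84.9 and 43.4 CPM in J7_MLKL, against 51.3, 56.9 and 51.9 CPM in J7_RIPK3 and not called (adjusted p 0.0557). It was called higher without J7_MLKL 3 (0.89), with DESeq2 (0.62, adjusted p 0.0422), with J7_CTL in the fit (0.64, adjusted p 0.0234) and among genes of both tables against J7_CTL (1.00, adjusted p 0.0123).

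Dbt, the acyltransferase core of the branched-chain ketoacid dehydrogenase, was 14.1-fold lower (log2 -3.63, adjusted p 8.5e-05), and the mitochondrial transaminase Bcat2 5.18-fold lower (log2 -2.22, adjusted p 0.00102). Citrate synthase, Cs, had 204, 216 and 206 CPM in J7_MLKL, against 1051, 1092 and 988 CPM in J7_RIPK3 (log2 fold change -2.15 ± 0.10 SE, adjusted p 7.94e-06), with no overlap and little spread within either group. Idh3a, a subunit of isocitrate dehydrogenase, was 7.57-fold lower (log2 -2.75, adjusted p 1.3e-05). Cycs, the electron carrier cytochrome c, was at 65.2, 75.5 and 139 CPM in J7_MLKL, against 608, 589.9 and 532 CPM in J7_RIPK3 (log2 fold change -2.45 ± 0.31 SE, adjusted p 0.000349). The complex I subunit Ndufv1 had 149, 151 and 326 CPM in J7_MLKL, against 403, 389 and 368 CPM in J7_RIPK3 and was not called (adjusted p 0.0742), with a value of -0.71. It was called lower without J7_MLKL 3 (-1.22), with the replicate block (-0.82, adjusted p 0.0428), with DESeq2 (-0.72, adjusted p 0.0444), with J7_CTL in the fit (-0.70, adjusted p 0.0369), on library totals (-0.89, adjusted p 0.03) and with the authors' size factors (-0.87, adjusted p 0.0377). The mitochondrially encoded mt-Co1, the core subunit of cytochrome oxidase, went the other way at 12138, 12323 and 8595 CPM in J7_MLKL, against 7572, 7585 and 7245 CPM in J7_RIPK3 (log2 fold change 0.73 ± 0.16 SE, adjusted p 0.00477).

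Of 9 tested thermogenic genes 8 were lower and 1 higher, with a median of -3.01. Beyond Cidea and Elovl3, the potassium channel Kcnk3 was 10.2-fold lower (log2 -3.19, adjusted p 2.71e-05) and the uncoupling protein Ucp3 9.06-fold lower (log2 -3.01, adjusted p 1.1e-05). All 21 tested genes of cholesterol synthesis and uptake were lower (median -2.40). Insig1, which holds the sterol sensor SCAP in the endoplasmic reticulum, had 32.7, 38.2 and 28.0 CPM in J7_MLKL, against 448, 419 and 402 CPM in J7_RIPK3 (log2 fold change -3.51 ± 0.14 SE, adjusted p 6.21e-06). Idi1, isopentenyl diphosphate isomerase, was 10.3-fold lower (log2 -3.17, adjusted p 0.000211). Fdps, farnesyl diphosphate synthase, was 9.38-fold lower (log2 -3.03, adjusted p 3.18e-05), a value that is uncertain because the gene has near-identical processed copies in the genome.

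Among stress programmes, the integrated stress response and endoplasmic reticulum chaperones were mostly lower in J7_MLKL, while p53 and Nrf2 targets were split. Genes of the integrated stress response counted 16 lower and 1 higher of 17 (median -1.84; 0 higher without J7_RIPK3 2 or 3), and endoplasmic reticulum chaperones 13 lower and 0 higher of 15 (median -0.81; 15 lower on library totals alone and without J7_MLKL 3). Trib3, a pseudokinase induced by ATF4, had 21.6, 16.1 and 35.9 CPM in J7_MLKL, against 293, 286 and 259 CPM in J7_RIPK3 (log2 fold change -3.33 ± 0.31 SE, adjusted p 9.65e-05), and Atf3, a stress-induced factor, had 2.20, 2.40 and 3.14 CPM in J7_MLKL, against 29.6, 28.8 and 26.5 CPM in J7_RIPK3 (log2 fold change -3.28 ± 0.18 SE, adjusted p 1.36e-05). Hspa5, the chaperone BiP, was at 593 CPM in J7_MLKL, against 2617 CPM in J7_RIPK3 (log2 -1.97, adjusted p 2.12e-05). Targets of p53 split into 6 higher and 6 lower of 15. Cdkn1a, the cell cycle inhibitor p21, was 4.21-fold lower (log2 -1.92, adjusted p 0.000207) and the stress hormone gene Gdf15 19.7-fold lower (log2 -4.13, adjusted p 2.12e-05), while the death receptor gene Fas was 7.197-fold higher (log2 3.02, adjusted p 4.34e-05). Nrf2 targets also split, with 7 higher and 10 lower of 18, and 3 or 4 higher without any 1 J7_RIPK3 library. Nqo1, a quinone reductase, was 3.28-fold higher (log2 1.87, adjusted p 8.83e-05) and the transaldolase Taldo1 6.001-fold lower (log2 -2.44, adjusted p 0.00124; log2 -3.08 without J7_MLKL 3).

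The fibroblast matrix stood higher in J7_MLKL. Of 39 tested genes of fibrillar matrix and crosslinking 29 were higher and 7 lower, with a median of 2.10, and their summed level was 34579 to 41628 CPM in J7_MLKL and 17431 to 18147 CPM in J7_RIPK3. Col1a1 (ENSMUSG00000001506, chromosome 11, 94936224 to 94953042, mm10), a chain of type I collagen, had 3775, 3605 and 3717 CPM in J7_MLKL, against 597, 582 and 586 CPM in J7_RIPK3, and Col1a2, its partner chain, had 8515, 8296 and 7195 CPM in J7_MLKL, against 1910.0, 1937 and 1878 CPM in J7_RIPK3. Neither gene's groups overlapped, and J7_MLKL 3 was the lowest J7_MLKL library for Col1a2 but not for Col1a1. Col1a1 was 6.30-fold higher (log2 fold change 2.82 ± 0.11 SE, adjusted p 5.56e-06) and Col1a2 4.19-fold higher (log2 fold change 2.24 ± 0.12 SE, adjusted p 1.27e-05). Larger folds came from genes with little expression in J7_RIPK3. Mfap5, a microfibril protein, had 77.3, 70.2 and 124 CPM in J7_MLKL, against 1.13, 1.09 and 0.831 CPM in J7_RIPK3 (log2 fold change 6.66 ± 0.32 SE, adjusted p 9.1e-06), Fmod, the collagen-binding proteoglycan fibromodulin, had 57.4, 46.6 and 56.8 CPM in J7_MLKL, against 0.542, 0.594 and 0.68 CPM in J7_RIPK3 (log2 fold change 6.62 ± 0.19 SE, adjusted p 2.93e-06), and Ogn, osteoglycin, 224, 226 and 161 CPM in J7_MLKL, against 3.13, 4.90 and 2.57 CPM in J7_RIPK3 (log2 fold change 6.03 ± 0.29 SE, adjusted p 9.04e-06). Fbln1 (fibulin 1) was 32.5-fold and Thbs1 (thrombospondin 1) 24.1-fold higher (log2 5.17, adjusted p 7.33e-06 and log2 4.77, adjusted p 3.44e-05). The proteoglycan Bgn was at 4417 ± 274 CPM in J7_MLKL and 1292 ± 31.7 CPM in J7_RIPK3 (log2 1.95, adjusted p 1.75e-05).

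Basement membrane genes did not share that direction, with 2 higher and 4 lower of 10 (median -0.76), and 5 higher and 5 lower of 11 without J7_MLKL 3. The laminin chain Lamb2 was 5.84-fold higher (log2 2.72, adjusted p 5.2e-06), whereas Col15a1, a basement membrane collagen, was 6.95-fold lower (log2 -2.61, adjusted p 1.65e-05). Matrix proteases and their inhibitors were 13 higher and 2 lower of 17 (median 2.57). Timp2, an inhibitor of matrix metalloproteases, had 2772, 2586 and 2352 CPM in J7_MLKL, against 78.5, 81.1 and 75.02 CPM in J7_RIPK3 (log2 fold change 5.21 ± 0.13 SE, adjusted p 2.59e-06). Its protease partner Mmp2 had 1809, 1658 and 1735 CPM in J7_MLKL, against 269, 277 and 252 CPM in J7_RIPK3 (log2 fold change 2.88 ± 0.11 SE, adjusted p 5.2e-06), so inhibitor and protease were both higher. Mmp9 had 10.8, 9.67 and 6.96 CPM in J7_MLKL, against 0.0833, 0.0495 and 0.227 CPM in J7_RIPK3, with only 9 reads in all of J7_RIPK3, and was 71.4-fold higher (log2 6.28, adjusted p 2.41e-05; log2 7.13 without J7_RIPK3 3).

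Contractile and actin cytoskeleton genes were higher in 16 of 17 tested members and lower in 1 (median 2.43). Acta2 (ENSMUSG00000035783, chromosome 19, 34241090 to 34255336, mm10), the smooth muscle actin that marks myofibroblasts, had 595, 528 and 1127 CPM in J7_MLKL, against 11.4, 14.9 and 12.9 CPM in J7_RIPK3. J7_MLKL 3 was the highest, but all 3 J7_MLKL libraries were far above J7_RIPK3, and Acta2 was 59.1-fold higher (log2 fold change 6.02 ± 0.38 SE, adjusted p 2.12e-05; log2 5.58 without J7_MLKL 3). J7_CTL was at 20.2 ± 2.41 CPM, close to J7_RIPK3. Cnn2, the actin-binding calponin 2, was 52.4-fold higher (log2 5.86, adjusted p 1.36e-05), Tpm1, a tropomyosin, 9.01-fold higher (log2 3.33, adjusted p 8.86e-06), and the myosin light chain gene Myl9 26.4-fold higher (log2 4.85, adjusted p 0.000518; log2 4.12 without J7_MLKL 3). Targets of YAP and serum response factor were 12 higher and 2 lower of 15 (median 1.36). Cyr61, a matricellular protein, had 223, 235 and 213 CPM in J7_MLKL, against 12.4, 13.1 and 13.6 CPM in J7_RIPK3 (log2 fold change 4.27 ± 0.11 SE, adjusted p 2.59e-06), and Fhl2, a LIM-domain cofactor, was 63.4-fold higher (log2 6.13, adjusted p 7.05e-06). The intermediate filament gene Vim had 5368, 4977 and 7282 CPM in J7_MLKL, against 1479, 1414 and 1356 CPM in J7_RIPK3 (log2 fold change 2.23 ± 0.18 SE, adjusted p 6e-05).

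Serum response factor binds a motif called the CArG box. It was searched as CCWWWWWWGG, with W for A or T, so a box with a deviating base is not counted. In the 250 bases before the annotated start, 1.47% of all 32851 RefSeq promoters held such a match. Of all 27025 genes 1.62% held one in at least 1 promoter. Among contractile genes with a RefSeq promoter entry, CArG boxes of this form were found in 2 of 16 (12.5%). The promoters of those genes are shown because these members hold the motif and both were called higher in J7_MLKL, with the motif in capitals, 5′ to 3′ on the gene's strand, RefSeq GRCm38.p6 (mm10). The window is chr10:79988450-79988599 on the plus strand for Cnn2 and chr2:156775293-156775463 on the plus strand for Myl9. A match is a stretch of letters and says nothing of binding in these cells.
Cnn2: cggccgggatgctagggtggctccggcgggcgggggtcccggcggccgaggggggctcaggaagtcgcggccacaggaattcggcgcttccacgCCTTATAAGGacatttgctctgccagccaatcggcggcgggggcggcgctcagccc
Myl9: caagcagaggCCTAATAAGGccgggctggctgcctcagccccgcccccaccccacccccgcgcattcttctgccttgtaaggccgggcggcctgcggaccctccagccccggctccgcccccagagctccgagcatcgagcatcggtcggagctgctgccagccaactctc

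Progenitor genes were higher in 17 of 19 tested members and lower in 0 (median 1.94). Gata2, a factor that holds preadipocytes undifferentiated, had 19.4, 16.8 and 16.5 CPM in J7_MLKL, against 1.29, 0.495 and 1.13 CPM in J7_RIPK3 (log2 fold change 4.31 ± 0.31 SE, adjusted p 3.35e-05). Thy1, a surface marker of fibroblasts, had 53.2, 50.3 and 77.7 CPM in J7_MLKL, against 9.21, 8.02 and 8.04 CPM in J7_RIPK3 (log2 fold change 3.02 ± 0.21 SE, adjusted p 2.93e-05), and J7_CTL, at 24.1 ± 1.12 CPM, lay between the groups. Pi16, a marker of early adipose progenitors, was 15.7-fold higher (log2 4.13, adjusted p 8.31e-05) and Twist2, a mesenchymal factor, 7.37-fold higher (log2 3.04, adjusted p 0.000258).

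The tested genes of the Wnt and TGF-beta pathways, which act on adipocyte differentiation, were mostly higher. Only 10 of 31 Wnt genes were tested, of which 9 were higher and 0 lower (median 2.92). Wnt6, a ligand that blocks adipogenesis, had 7.69, 6.82 and 14.2 CPM in J7_MLKL, against 0.125, 0.198 and 0.189 CPM in J7_RIPK3 (log2 fold change 5.95 ± 0.46 SE, adjusted p 4.43e-05), Wnt4 was 9.99-fold higher (log2 3.47, adjusted p 0.000185), and the secreted Wnt inhibitor Sfrp2 was 11.98-fold higher (log2 3.75, adjusted p 1.74e-05). Ccnd1, cyclin D1, had 172, 158 and 87.7 CPM in J7_MLKL, against 20.2, 21.9 and 17.4 CPM in J7_RIPK3 (log2 fold change 2.98 ± 0.26 SE, adjusted p 7.68e-05). In the TGF-beta and BMP list, 13 of 16 were higher and 1 lower (median 2.28; 2 lower on library totals, with the authors' size factors and without J7_MLKL 3). Grem1, a BMP antagonist, had 191, 157 and 97.1 CPM in J7_MLKL, against 9.54, 10.1 and 10.5 CPM in J7_RIPK3 (log2 fold change 4.05 ± 0.26 SE, adjusted p 2.2e-05). Fst, follistatin, was 13.6-fold higher (log2 3.92, adjusted p 4.63e-06) and Fstl1, a follistatin-like protein, 11.7-fold higher (log2 3.72, adjusted p 6.72e-06). The member called lower was the ligand Gdf5, 10.8-fold lower (log2 -3.24, adjusted p 0.000122). The IGF axis was split, with 5 higher and 3 lower of 9 (median 0.84). Igfbp4, an IGF binding protein, was 12.8-fold lower (log2 -3.52, adjusted p 6.07e-05) and Igf1 2.48-fold higher (log2 1.48, adjusted p 0.000104).

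Chemokines and inflammatory cytokines were higher in 15 of 19 and lower in 3 (median 2.85). Ccl2, which attracts monocytes, had 24.2, 21.1 and 37.9 CPM in J7_MLKL, against 0.708, 0.198 and 0.415 CPM in J7_RIPK3 (log2 fold change 6.11 ± 0.44 SE, adjusted p 3.32e-05), and its neighbour in the gene cluster, Ccl7, had 17.1, 15.5 and 32.7 CPM in J7_MLKL, against 0.75, 0.891 and 0.566 CPM in J7_RIPK3 (log2 fold change 5.07 ± 0.41 SE, adjusted p 5.25e-05). Both were at or under 1 CPM in every J7_RIPK3 library. Csf1, the growth factor of macrophages, had 738, 671 and 571 CPM in J7_MLKL, against 42.3, 41.5 and 42.8 CPM in J7_RIPK3 (log2 fold change 4.14 ± 0.13 SE, adjusted p 3.7e-06). Cxcl5, a neutrophil chemokine, was 30.8-fold higher (log2 5.09, adjusted p 7.27e-06), while Lcn2, the siderophore-binding lipocalin, was 15.96-fold lower (log2 -3.82, adjusted p 2.45e-05).

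The interferon genes formed the group with the highest median among the lists. Of 46 interferon-stimulated genes 45 were listed in some table and 33 could be tested. Of those, 32 were higher and 0 lower, with a median log2 fold change of 3.80, and all 8 interferon-induced GTPases were higher (median 3.29). These counts were the same on library totals alone, with the authors' size factors and without J7_MLKL 3. Because the list's genes share an inducer, they are not independent of each other.

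Interferon-stimulated response elements, searched as GAAANNGAAA or its reverse complement TTTCNNTTTC, were present in the 250 bases before the start of all 7 GTPase genes with a RefSeq promoter entry and of 9 of 24 interferon-stimulated genes with one. Of all 32851 promoters given by RefSeq, 2.98% held such a match, and of all 27025 genes 3.46% held one in at least 1 promoter. The promoters of 4 genes described next that hold a match are shown with the matches in capitals, 5′ to 3′ on the gene's strand, from RefSeq GRCm38.p6 (mm10). The entries of Oasl2 and Cmpk2, also described next, hold none. The stretches shown lie at chr19:34640739-34640888 (plus strand), chr3:142559894-142560043 (plus strand), chr11:58199406-58199555 (plus strand) and chr11:48871421-48871570 (minus strand), and in Gbp3 and Irgm1 a pair of matches overlap.
Ifit1: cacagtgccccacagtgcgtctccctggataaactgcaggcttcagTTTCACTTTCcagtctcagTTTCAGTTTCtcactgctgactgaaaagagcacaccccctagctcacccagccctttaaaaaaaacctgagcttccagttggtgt
Gbp3: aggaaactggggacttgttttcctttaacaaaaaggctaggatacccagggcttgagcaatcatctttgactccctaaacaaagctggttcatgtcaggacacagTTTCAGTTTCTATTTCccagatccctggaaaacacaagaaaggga
Igtp: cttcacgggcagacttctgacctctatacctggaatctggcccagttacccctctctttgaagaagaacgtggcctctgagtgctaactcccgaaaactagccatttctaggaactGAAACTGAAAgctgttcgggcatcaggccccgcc
Irgm1: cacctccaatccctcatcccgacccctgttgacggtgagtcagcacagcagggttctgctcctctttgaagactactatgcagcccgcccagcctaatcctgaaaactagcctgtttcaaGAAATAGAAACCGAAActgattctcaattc

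Ifit1, an antiviral protein that binds foreign RNA caps, had 31.8, 41.3 and 31.3 CPM in J7_MLKL, against 0.417, 0.347 and 0.529 CPM in J7_RIPK3. J7_CTL averaged 0.32 ± 0.0827 CPM, as low as J7_RIPK3, while undifferentiated J0_CTL averaged 35.5 ± 4.60 CPM (SD, n = 3), a range that overlaps J7_MLKL. Ifit1 was 78.4-fold higher in J7_MLKL (log2 fold change 6.47 ± 0.23 SE, adjusted p 4.52e-06). Oasl2 (ENSMUSG00000029561, chromosome 5, 114896936 to 114912234, mm10), of the oligoadenylate synthetase family, had the highest log2 fold change of the protein-coding genes named by the rule. It had 38.3, 26.9 and 52.6 CPM in J7_MLKL, against 0.208, 0.099 and 0.151 CPM in J7_RIPK3 (log2 fold change 8.11 ± 0.42 SE, adjusted p 1.08e-05). Mx1, a GTPase that blocks influenza viruses, had 6.07, 16.6 and 8.02 CPM in J7_MLKL, against 0, 0 and 0.151 CPM in J7_RIPK3 (log2 fold change 7.54 ± 0.81 SE, adjusted p 0.000184), a value that reached 10.98 without J7_RIPK3 3, which holds all 4 of the J7_RIPK3 reads. Oas2 was 111-fold higher (log2 6.88, adjusted p 5.25e-05; log2 7.96 without J7_RIPK3 1), and Cmpk2, a mitochondrial nucleotide kinase, 64.3-fold higher (log2 6.13, adjusted p 7.68e-05; log2 6.95 without J7_RIPK3 3). Genes of the Oas family and others with close copies share reads, so single values of such genes are uncertain.

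Among the GTPases, Iigp1 had 25.4, 28.7 and 21.2 CPM in J7_MLKL, against 1.58, 0.644 and 1.09 CPM in J7_RIPK3 (log2 fold change 4.65 ± 0.31 SE, adjusted p 2.36e-05), Gbp3 was 12.7-fold higher (log2 3.82, adjusted p 9.1e-06), and Irgm1 and Igtp, of the immunity-related family, were 8.65-fold and 8.95-fold higher (log2 3.27, adjusted p 2.17e-05 and log2 3.31, adjusted p 6.1e-05). In MHC class I presentation 8 of 12 were higher and 3 lower (median 1.48). B2m, the light chain of MHC class I, had 630.1, 576 and 1145 CPM in J7_MLKL, against 242, 228 and 215 CPM in J7_RIPK3 (log2 fold change 1.96 ± 0.29 SE, adjusted p 0.000702), and Psmb8, a subunit of the immunoproteasome, was 4.03-fold higher (log2 2.16, adjusted p 0.00222). The heavy chain H2-K1 had 51.3, 45.4 and 159.7 CPM in J7_MLKL, against 104, 89.0 and 86.0 CPM in J7_RIPK3 and was not called (adjusted p 0.906). Without J7_MLKL 3 it was called lower (log2 -0.80, adjusted p 8.2e-12). With all libraries its log2 fold change of 0.06 turned to -0.12 on library totals and -0.10 with the authors' size factors. Its direction thus depends on that library and on the scaling, and H2 genes also share reads with close relatives.

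**Figure D3:**
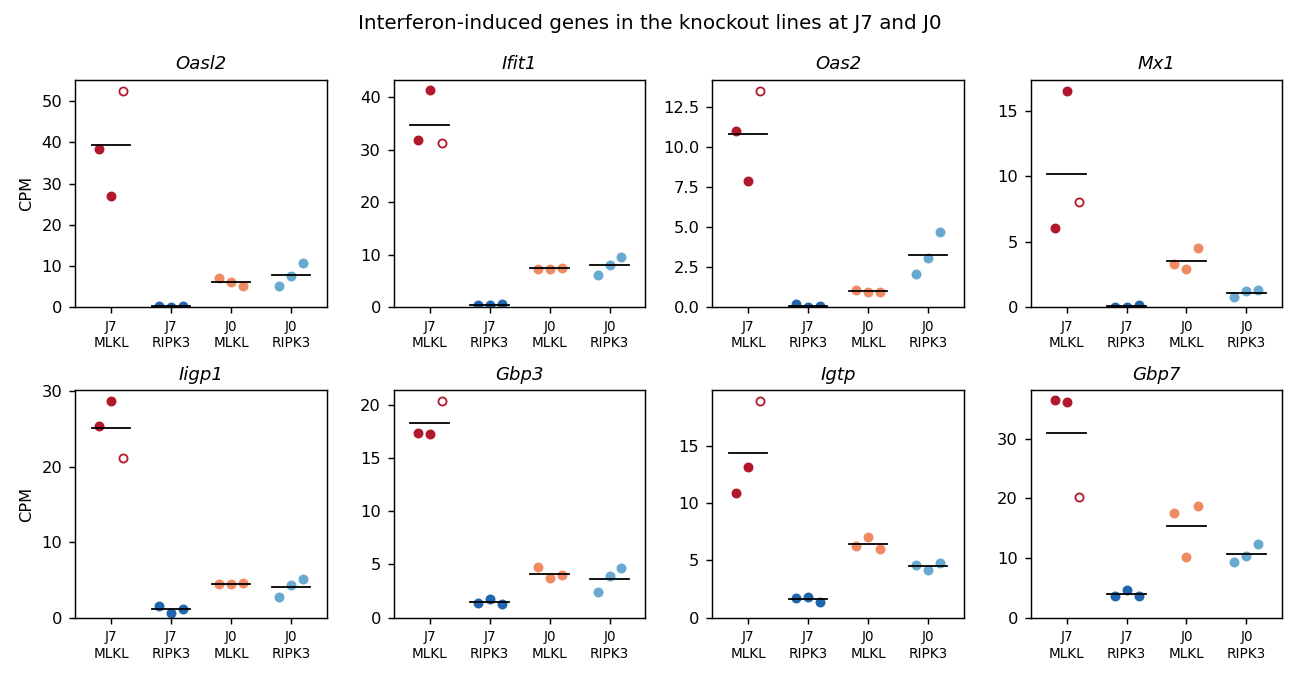
The plot gives the level (y axis, CPM from 0) of 8 interferon-induced genes in each library of J7_MLKL, J7_RIPK3, J0_MLKL and J0_RIPK3 (x axis), with the group mean as a bar and J7_MLKL 3 as an open circle. All J7_MLKL points lie above all J7_RIPK3 points, and in Ifit1 the J0 libraries of both lines average 7.36 CPM in J0_MLKL and 7.92 CPM in J0_RIPK3.

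The largest folds belonged to genes that one group hardly expressed. By the naming rule, the 10 lowest protein-coding genes in J7_MLKL were Ffar4, Gys2, Ghrh, Elovl3, Cidea, Kcnj15, 2610528A11Rik, Slc25a34, Mb and Pck1. Ffar4, a receptor for long-chain fatty acids, had 0 reads in J7_MLKL and 45.01, 41.7 and 36.3 CPM in J7_RIPK3, at least 1007-fold lower with 3 reads in the whole group taken as the detection floor. Gys2, the glycogen synthase known from liver, likewise had 0 reads, against 14.7, 13.7 and 13.2 CPM in J7_RIPK3, at least 341-fold lower. J7_CTL averaged 19.9 ± 2.48 CPM of Ffar4 and 1.12 ± 0.237 CPM of Gys2, both below J7_RIPK3. Ghrh, the releasing hormone of growth hormone, had 2 reads in J7_MLKL and 2662 reads in J7_RIPK3, 1394-fold lower (95% counting interval 386 to 11519), and its log2 fold change of -10.03 was -12.74 without J7_MLKL 3, which held both J7_MLKL reads. Mb, myoglobin, had 2 reads in J7_MLKL and 362 reads in J7_RIPK3, 189.6-fold lower (52.1 to 1572). Kcnj15, a potassium channel, had 1 read in J7_MLKL and 510 reads in J7_RIPK3 (534-fold lower, interval 95.5 to 21142; log2 -8.43, or -10.38 without J7_MLKL 2). Slc25a34, a mitochondrial carrier family member, had 0.464, 0.276 and 0.416 CPM in J7_MLKL, against 81.6, 70.9 and 71.6 CPM in J7_RIPK3 (log2 -7.39, adjusted p 2.59e-06). The gene 2610528A11Rik had 0.386, 0.184 and 1.10 CPM in J7_MLKL, against 153, 119 and 123 CPM in J7_RIPK3 (log2 -7.66, or -8.64 without J7_MLKL 3). J7_CTL averaged 0.626 CPM of Mb (5.12 CPM in J7_RIPK3), 0.473 CPM of Kcnj15 (7.13 CPM) and 5.96 CPM of Elovl3 (20.96 CPM). Slc25a34, at 32.4 CPM in J7_CTL, was below J7_RIPK3 there as well, while Ghrh (71.6 CPM) and 2610528A11Rik (166 CPM) were above it.

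Among the 10 highest were Oasl2, H2-M5, Fbln7, Mx1, Ptprq, Pi15, Ugt2b5, Oas2 and Ror2. Ptprq, a receptor-type phosphatase, had 34.5, 34.5 and 9.68 CPM in J7_MLKL, against 0.208, 0.198 and 0.113 CPM in J7_RIPK3 (log2 fold change 7.38 ± 0.69 SE, adjusted p 9.69e-05), with J7_MLKL 3 the lowest J7_MLKL library. Ror2, a receptor kinase that binds Wnt ligands, had 6.72, 6.403 and 5.79 CPM in J7_MLKL, against 0.0833, 0 and 0.0755 CPM in J7_RIPK3 (log2 6.84, adjusted p 1.74e-05), and Pi15, a secreted protease inhibitor, 97.2, 115 and 44.7 CPM in J7_MLKL, against 0.959, 0.693 and 0.68 CPM in J7_RIPK3 (log2 6.94, adjusted p 2.19e-05). H2-M5 had 475 reads in J7_MLKL and 2 reads in J7_RIPK3, a ratio of 227 (95% counting interval 62.4 to 1878), and its log2 fold change of 7.75 was 10.32 without J7_RIPK3 3. Counting intervals and floors cover counting error only. Fbln7 and Ugt2b5 each had 4 reads in J7_RIPK3, and their log2 fold changes of 7.55 and 6.89 reached 10.99 when J7_RIPK3 3 and 10.42 when J7_RIPK3 2 was left out, the only J7_RIPK3 library that held those reads in either case. Without J7_RIPK3 1 or 3, Ugt2b5 stood at 6.30 and 6.25. By the difference in mean CPM the 5 genes furthest above J7_RIPK3 in J7_MLKL were Col1a2, Vim, Ptn, mt-Co1 and Bgn. Ptn, the growth factor pleiotrophin, had 3967, 3924 and 4302 CPM in J7_MLKL, against 136, 138 and 122 CPM in J7_RIPK3 (log2 fold change 5.12 ± 0.13 SE, adjusted p 2.59e-06). The 5 furthest below J7_RIPK3 in J7_MLKL by that difference were Scd1, Lpl, Fabp4, Aldoa and Acsl1.

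The same contrast in undifferentiated cells shows, for the genes measured there, which differences were already present. For the 2851 genes with counts in J7_MLKL, J7_RIPK3, J0_MLKL and J0_RIPK3 that passed the filter, the log2 difference of the contrast (J7_MLKL over J7_RIPK3, minus J0_MLKL over J0_RIPK3) was called for 1994. J0_MLKL had counts only for 4217 genes, those that the authors called against J0_CTL or between J7_MLKL and J0_MLKL. These held 29.3 to 30.4% of the J0_MLKL reads, while listed genes held 91.3 to 91.6% in J0_RIPK3. The genes compared here were thus preselected for a difference in cells titled MLKL. The difference was above 0 for 1138 (39.9% of the genes tested) and below 0 for 856 (30.0%), an order that turned with DESeq2, which called 1013 above and 1075 below 0. The J0 and difference values come from a fit over 12 libraries with its own TMM factors, and the J7 values from the fit over 6. These values therefore do not subtract exactly: Ifit1 had 6.47 at J7, -0.11 at J0 and 6.25 for the difference. At J0 alone 1473 of the 2851 genes were called, 695 higher and 778 lower, and counts of a list at J0 are read against these. Lists already apart at J0 included cholesterol genes, with all 8 lower (median -1.08), and fatty acid synthesis, with 6 of 9 lower. Adipogenic transcription factors were 6 lower and 1 higher of 10 at J0 (median -0.59), and p53 targets 10 lower and 1 higher of 13 (median -0.88). Cebpa was called lower at J0 (log2 -1.42), and its difference of the contrast was called as well (-2.15). Contractile genes were 6 higher and 1 lower of 9 at J0, and chemokines 9 higher and 1 lower of 12. Wnt genes were 4 higher and 2 lower of 8 at J0 (median 0.81), with 4 higher and 0 lower in the difference. Fabp4 (log2 -2.79 at J0) and Ebf2 (-2.58) were called lower and Ugt2b5 (5.14) higher at J0, and their difference of the contrast was not called. Among the J0_MLKL libraries, J0_MLKL 2 stood apart, and without J0_MLKL 2 and J7_MLKL 3 together 2244 genes were called for the difference.

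**Figure D4:**
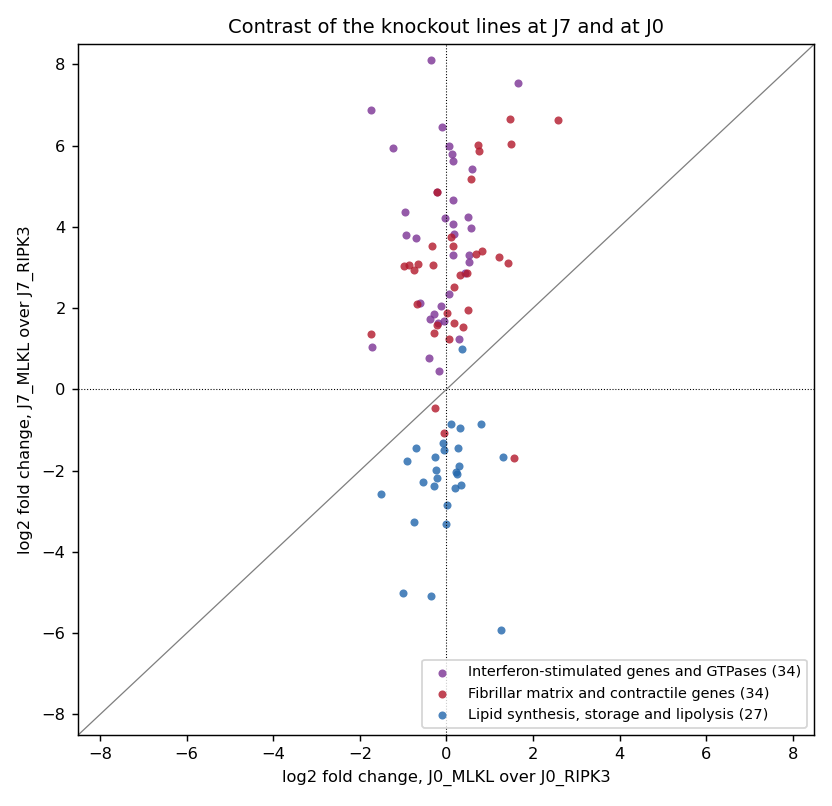
Each point is a gene with a mean of at least 0.5 CPM in a J0 knockout group, placed by its log2 fold change at J0 (x axis, J0_MLKL over J0_RIPK3) and at J7 (y axis, J7_MLKL over J7_RIPK3), with equality as a grey line. Of 34 interferon-induced genes 30 lie within 1 of zero at J0 and all 34 above zero at J7, and of 27 lipid genes 24 lie within 1 of zero at J0 and 26 below zero at J7.

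Interferon-stimulated genes differed far more between the lines at J7 than at J0. In the 29 members with counts in all 4 groups the median log2 fold change was 3.96 at J7 and -0.13 at J0, and 28 of the 29 were called higher in the difference. At J0 alone, 2 of them were called higher and 9 lower. Ifit1 had 7.33, 7.26 and 7.49 CPM in J0_MLKL and 6.18, 7.98 and 9.61 CPM in J0_RIPK3, overlapping ranges, with a difference of the contrast of 6.25 ± 0.30 SE, adjusted p 1.14e-08. Its J7_MLKL level lay above J0_MLKL and J0_RIPK3 and its J7_RIPK3 level below them, but the undifferentiated control cells, at 37.2, 30.4 and 39.1 CPM in J0_CTL, overlapped J7_MLKL. Iigp1 showed the same order, with 4.44, 4.47 and 4.64 CPM in J0_MLKL and 2.76, 4.27 and 5.09 CPM in J0_RIPK3 (4.17 ± 0.39 SE, adjusted p 1.88e-06). The J0_CTL level of Iigp1, 27.2, 28.5 and 27.7 CPM, overlapped J7_MLKL too. Oasl2 averaged 39.3 CPM in J7_MLKL and 29.99 CPM in J0_CTL, Oas2 averaged 10.8 CPM in J7_MLKL and 17.4 CPM in J0_CTL, and Mx1 averaged 10.2 CPM in J7_MLKL and 5.25 CPM in J0_CTL. These comparisons with J0_CTL were not tested.

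Matrix genes also differed more at J7 than at J0. In the 25 fibrillar matrix genes with counts in all 4 groups the median was 2.94 at J7 and 0.06 at J0, with 23 higher and 2 lower in the difference, while at J0 alone 8 were called higher and 9 lower. Of 16 progenitor genes 14 were higher and 1 lower in the difference. Col1a1 had 5447, 6062 and 5533 CPM in J0_MLKL and 4656, 4485 and 4597 CPM in J0_RIPK3 (difference 2.18 ± 0.09 SE, adjusted p 2.87e-09), so J7_MLKL, at 3699 CPM, was nearer to the J0 levels than J7_RIPK3, at 588 CPM. Timp2 had 2018, 1902 and 1966 CPM in J0_MLKL and 1471, 1489 and 1529 CPM in J0_RIPK3 (4.49 ± 0.11 SE, adjusted p 1.32e-10). Triglyceride synthesis genes had a median of 0.28 at J0 and -2.36 at J7 over 11 genes, and 10 of them were lower in the difference. Dgat2 was at 5.09, 4.93 and 5.02 CPM in J0_MLKL and 6.42, 6.32 and 6.42 CPM in J0_RIPK3 (-5.08 ± 0.34 SE, adjusted p 1.18e-07).

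The naming rule also took the 5 protein-coding genes with the smallest p in that difference, which were Ptn, Rnase4, Timp2, Egln3 and C1s1. Ptn had 11927, 13861 and 11657 CPM in J0_MLKL and 12342, 12849 and 13033 CPM in J0_RIPK3, overlapping ranges, against 4064 CPM in J7_MLKL and 132 CPM in J7_RIPK3 (4.82 ± 0.12 SE, adjusted p 1.32e-10). Rnase4, a secreted ribonuclease, averaged 225 CPM in J7_MLKL and 11.04 CPM in J7_RIPK3, with 157 CPM in J0_MLKL and 202 CPM in J0_RIPK3 (4.56 ± 0.10 SE, adjusted p 1.09e-10), but its exons overlap those of the angiogenin gene and its value is uncertain. Egln3, an oxygen-sensing prolyl hydroxylase, was lower, with 7.77, 8.25 and 9.91 CPM in J7_MLKL, against 444, 376 and 373 CPM in J7_RIPK3, and 10.4 CPM in J0_MLKL and 16.5 CPM in J0_RIPK3 (-5.01 ± 0.14 SE, adjusted p 6.56e-10). C1s1, a complement protease with a close copy in the genome, had 203, 199 and 178 CPM in J7_MLKL, against 10.3, 9.21 and 9.63 CPM in J7_RIPK3 (3.39 ± 0.10 SE, adjusted p 6.64e-10).

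Markers of muscle, macrophages and endothelium were mostly not among the measured genes or were near the detection limit. Of 24 skeletal muscle markers 1 was tested, of 15 macrophage markers 2 and of 14 endothelial markers 1, with summed levels of 1.44 to 2.16 CPM in J7_MLKL and 0.959 to 1.74 CPM in J7_RIPK3 for macrophage and 0.618 to 0.921 CPM in J7_MLKL and 1.54 to 1.71 CPM in J7_RIPK3 for endothelial markers. Of 12 epithelial markers 5 were tested, 1 higher and 4 lower, with 4.51 to 7.22 CPM in J7_MLKL and 27.3 to 28.7 CPM in J7_RIPK3 in sum, and the keratin Krt18 had 0.232, 0.23 and 0.757 CPM in J7_MLKL, against 16.2, 15.5 and 17.3 CPM in J7_RIPK3 (log2 -5.11, adjusted p 5.36e-05; log2 -5.97 without J7_MLKL 3). Osteoblast markers were well above it, at 3735 to 3914 CPM in J7_MLKL and 683 to 694 CPM in J7_RIPK3 in sum. Most of that sum was Col1a1, the collagen chain described with the fibroblast matrix, so it says little of genes particular to osteoblasts. Of 6 tested markers 3 were higher and 1 lower, or 2 lower on library totals and with the authors' size factors. Runx2, a factor of the bone lineage, was 5.15-fold higher (log2 2.54, adjusted p 8.99e-05), and Alpl, alkaline phosphatase, was 37.7-fold lower (log2 -5.07, adjusted p 7.5e-06). Chondrocyte markers were 2 higher and 1 lower of 3, with Sox9, a factor of cartilage and of progenitors, 2.93-fold higher (log2 1.73, adjusted p 7.76e-05). The part of these markers in the other differences was not tested.

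Cell cycle genes were few among those measured. Of 26 mitotic genes only 4 could be tested. All 4 were higher, with Plk1, a mitotic kinase, at 11.7 ± 4.92 CPM in J7_MLKL and 4.30 ± 0.645 CPM in J7_RIPK3 (log2 1.62, adjusted p 0.0031) and Kif23, a kinesin of cytokinesis, at 6.51 ± 0.127 CPM in J7_MLKL and 1.59 ± 0.439 CPM in J7_RIPK3 (log2 2.21, adjusted p 0.000127). DNA replication genes were 3 higher and 2 lower of 10, with 4 lower on library totals, with the authors' size factors and without J7_MLKL 3. Among them were the helicase subunit Mcm6, 1.80-fold higher (log2 1.01, adjusted p 0.000264), and cyclin E1, Ccne1, 3.49-fold lower (log2 -1.65, adjusted p 0.00108). Immediate early genes were 8 higher and 7 lower of 16, with Junb 2.80-fold higher (log2 1.65, adjusted p 9.78e-05) and Fosl1 7.04-fold lower (log2 -2.64, adjusted p 7.8e-06).

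**Figure D5:**
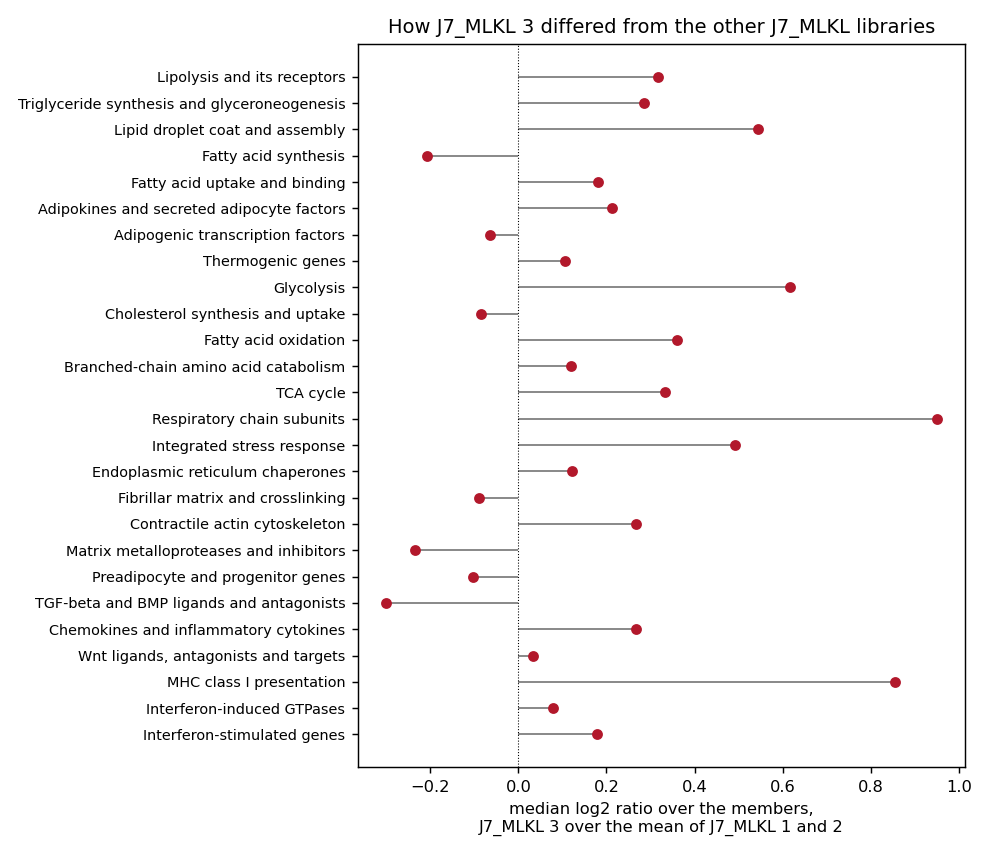
The plot gives, for each of 26 gene lists (y axis), the median over the members of the log2 ratio of J7_MLKL 3 to the mean of J7_MLKL 1 and 2 (x axis). Respiratory chain subunits lie at 0.95 and MHC class I genes at 0.86, while interferon-stimulated genes lie at 0.18 and fibrillar matrix genes at -0.09.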

How the data were processed

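Total RNA of 3 libraries per group was sequenced. Strand is not given in the sources used here. Reads were aligned with HISAT2 to mm10 and tallied with featureCounts 1.5.0-p3 after quality control with FastQC 0.11.9, per the submitters' processing notes. The raw read counts per gene are as deposited by the authors. The deposited normalised counts (a signal per gene) are those counts divided by 1 size factor per library, as the authors' columns show. The deposited FPKM values are counts per gene length and library total, per the file headers, and served here to recover library totals. The deposited log2 fold changes and p-values are the authors' DESeq2 results, per the file headers and the submitters' processing notes, and no value of them is printed. Other columns deposited by the authors give mm10 coordinates and gene lengths.

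No deposited table compares J7_MLKL with J7_RIPK3, so counts were joined by gene over 7 tables, and every per-library column was matched to a sample. 14 enrichment tables were not used. Genes were filtered with filterByExpr, scaled by TMM on the recovered totals and tested with edgeR 4.0.16 (quasi-likelihood F test, R 4.3.3, limma 3.58.1) over these 6 libraries, with Benjamini-Hochberg adjustment. The difference of the contrast between J7 and J0 was an interaction over 12 libraries. Alternatives included DESeq2 1.42.0, other scalings and filters, leaving out each library and a replicate block. Genes were named by rule: both targets, the 10 highest and 10 lowest protein-coding fold changes with at least 5 CPM, up to 5 called and 2 uncalled members of each list, the 5 smallest interaction p-values, and the 5 largest CPM differences in each direction. Some genes that the rule takes are not reported here. Markers of adipocytes and fibroblasts were named besides. The 42 gene lists and the comparison itself were chosen with earlier results of these data known. Promoters came from a RefSeq table of GRCm38.p6.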

Additional observations from a re-analysis of the deposited data

Results flagged for a closer look

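The contrast of the lines differed between the differentiated and undifferentiated stage for 1994 of 2851 genes (edgeR interaction, adjusted p under 0.05), and the 12 genes below, named by rule, were among them. In each sentence the value is the log2 fold change of J7_MLKL over J7_RIPK3 minus that of J0_MLKL over J0_RIPK3, both in the fit over 12 libraries. The J7 values printed elsewhere come from the fit over 6 libraries and do not subtract to it exactly.

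Of these 12 genes the antiviral ones had the largest differences. Oasl2 differed by 8.15 ± 0.56 SE, adjusted p 1.55e-07, and its J0 contrast of -0.36 was not called (adjusted p 0.323). Oas2 differed by 8.31 ± 0.67 SE, adjusted p 5.59e-07, with a J0 contrast of -1.75 (adjusted p 0.00287), and Mx1 by 5.57 ± 0.94 SE, adjusted p 0.00024, with a J0 contrast of 1.66 (adjusted p 0.00995). At J0, then, Oas2 was lower and Mx1 higher in J0_MLKL.

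Among matrix and growth factor genes, Ptn differed by 4.82 ± 0.12 SE, adjusted p 1.32e-10, Timp2 by 4.49 ± 0.11 SE, adjusted p 1.32e-10 and Fbln7 by 3.66 ± 0.76 SE, adjusted p 0.00106. The secreted ribonuclease gene Rnase4 differed by 4.56 ± 0.10 SE, adjusted p 1.09e-10, and the complement protease gene C1s1 by 3.39 ± 0.10 SE, adjusted p 6.64e-10. Ptprq differed by 5.22 ± 0.85 SE, adjusted p 0.000186, Pi15 by 3.28 ± 0.55 SE, adjusted p 0.00022 and Ror2 by 2.86 ± 0.51 SE, adjusted p 0.000344. Egln3 went the other way, at -5.01 ± 0.14 SE, adjusted p 6.56e-10. At J0 the contrast was already 3.68 for Ror2 (adjusted p 3.25e-07), 3.59 for Fbln7 (1.37e-05), 3.33 for Pi15 (2.17e-05) and 1.85 for Ptprq (0.00501). It was smaller in size for C1s1 (0.77), Egln3 (-0.66), Timp2 (0.39), Rnase4 (-0.36) and Ptn (-0.03), of which only Ptn was not called.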

How the results depend on the processing

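The 2952 higher and 2771 lower calls stayed within 1.5 times under every scaling, DESeq2, both count filters and the fit with J7_CTL. With DESeq2 3105 genes were higher and 2968 lower. The excess of higher calls turned on library totals (2801 higher, 3073 lower) and with the authors' size factors (2816 higher, 3054 lower). They moved where fewer genes could be called: 647 higher and 601 lower among genes of both differentiation tables, 1171 and 1138 among genes of both tables against J7_CTL, and 1626 lower with an absolute log2 fold change over 1. Leaving out 1 library gave 2789 to 3145 higher and 2468 to 3137 lower calls, and 1892 to 2142 calls for the difference of the contrast, against 1994. Without J7_MLKL 3 and J0_MLKL 2 together, an alternative chosen after seeing the data, the difference was called for 2244 genes.

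The replicate block gave 2852 higher and 2668 lower calls. Same-numbered libraries did not deviate together (correlations of -0.104, -0.024 and -0.137 over 6570 genes), so the numbers are not taken as pairs. The direction of 2 uncalled genes changed. H2-K1, at 0.06, was -0.12 on library totals and among genes of both differentiation tables, -0.10 with the authors' size factors and -0.21 with the replicate block, and ranged over -0.80 to 0.38 with 1 library left out. Ripk3 was 0.30 among genes of both tables against J7_CTL and ranged over -0.33 to 0.06. The cause of these changes was not tested. A count of 0 to 3 reads limits the folds of the most extreme genes.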
